A study of Oryza sativa Japonica Group with 8 samples.

Results

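Isocitrate lyase, malate synthase and phosphoenolpyruvate (PEP) carboxykinase were followed in leaves of rice plants left without water. The 3 genes were named by identifier, Os07g0529000, Os04g0486950 and Os03g0255500, with their values in these same libraries already known. They are 3 of 27626 genes that had values in both deposited tables, and all 3 were among the 18113 genes whose mean level reached 1 FPKM in both tables. FPKM counts sequenced fragments per kilobase of a transcript, scaled to library depth, and it was summed over the transcripts of a gene.

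The plants were japonica rice of the variety Ilmi, grown in soil in a greenhouse with 3 plants per pot, and leaves of 5-week-old plants were sampled. Plants left without water for 1, 2 or 3 days from a soil water content of about 75% were compared with well-watered plants. A total RNA library and an mRNA library were made for each of these 4 treatments, giving 8 libraries, with a single library behind each group. The labels do not say how many plants or pots a library held, or whether both library kinds came from the same RNA. No treatment had a replicate, so differences are described by their size, with no p-value.

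The glyoxylate cycle is a shortened form of the tricarboxylic acid cycle. Isocitrate lyase splits isocitrate into glyoxylate and succinate, and malate synthase joins glyoxylate to acetyl-CoA to make malate, so that carbon from fatty acid beta-oxidation can be kept for sugar synthesis instead of being released as carbon dioxide. PEP carboxykinase turns oxaloacetate into PEP, the entry of that carbon into gluconeogenesis, and in plants it also acts in amino acid metabolism. The pathway is best known from germinating oilseeds and from senescing leaves.

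Depth and tissue were checked before the members were compared. The FPKM total of a library lay between 678548 and 755487. A step was read as the most frequent low value of FPKM times transcript length in a library. Between 4.1% and 7.6% of low values lay at it. That step corresponds to 16.3 to 24.6 M fragments in a library if it is 1 fragment, which is an assumption. Leaf markers were low on day 3 and abundant in the well-watered libraries: the 5 Rubisco small subunit genes summed to 22499, 12918, 3766 and 140.0 FPKM in total RNA of the well-watered, day 1, day 2 and day 3 plants, and to 17868, 10895, 2555 and 95.8 FPKM in mRNA. The 15 chlorophyll a/b-binding protein genes summed to 765 FPKM in day 3 and 33013 FPKM in well-watered total RNA. Seed and embryo markers were low but not level across treatments. The 7 glutelin genes summed to 8.17, 9.94, 11.6 and 34.5 FPKM in total RNA of the well-watered, day 1, day 2 and day 3 plants, and to 12.8, 16.2, 17.7 and 101 FPKM in mRNA. One of them, Os03g0188500, singled out after its values were seen, made up most of the day 3 sums (27.4 FPKM in total RNA and 92.0 FPKM in mRNA) and was higher on days 2 and 3. The 6 oleosin genes summed to 0.380, 1.56, 2.33 and 15.5 FPKM in total RNA and to 0.629, 1.49, 1.71 and 14.6 FPKM in mRNA, and 5 prolamin genes summed to at most 1.78 FPKM in all 8 libraries. The part of these marker levels in the results that follow was not tested, and in whole leaves a change in the number of cells of a type and a change in RNA per cell cannot be told apart.

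Isocitrate lyase and malate synthase were higher on every drought day than in watered leaves, where their levels were low, and their highest deposited FPKM values were on day 2. PEP carboxykinase was already well expressed in watered leaves and stayed within a 2-fold range of its watered level throughout. A gene was called higher where total RNA and mRNA each gave a log2 ratio of FPKM + 1 of 1 or more, and lower where each gave -1 or less. By this rule 2 of the 3 genes, isocitrate lyase and malate synthase, were higher than in well-watered leaves on day 1, against 6.93% of all genes tested. The same 2 genes were higher on day 2, against 14.5% of genes tested, and on day 3, against 18.2%. These values chose the members, so nothing is read from the counts. The 3 day ratios of a library kind share 1 well-watered library and are not independent of each other.

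**Figure D1:**
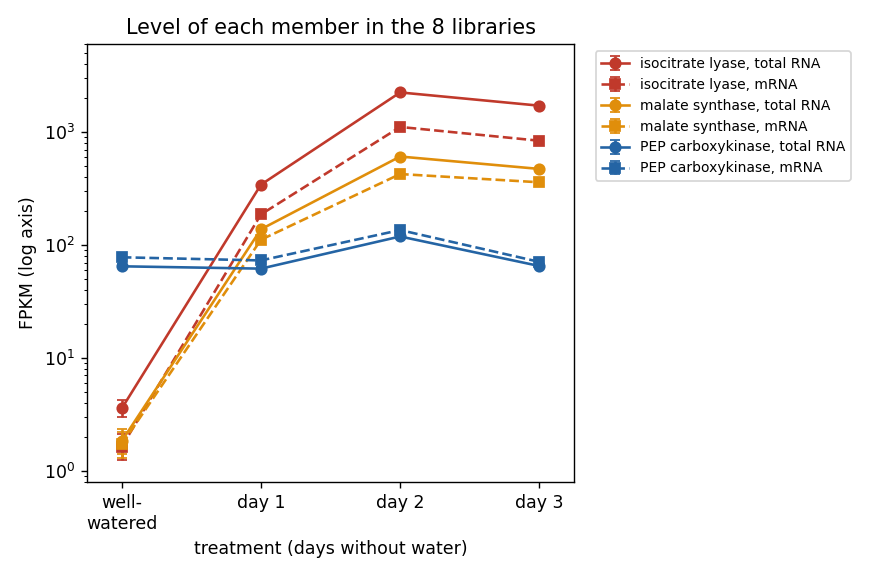
FPKM of isocitrate lyase, malate synthase and PEP carboxykinase (vertical axis, logarithmic) in well-watered leaves and after 1, 2 and 3 days without water (horizontal axis), with circles and solid lines for total RNA and squares and dashed lines for mRNA. Bars are 95% Poisson intervals of counting error if the most frequent low step is 1 fragment. In most cases they are smaller than the points, and each point is 1 library. Isocitrate lyase and malate synthase lie at or above 111 FPKM on every drought day and below 4 FPKM in watered leaves, while PEP carboxykinase lies between 61.8 and 136 FPKM in all 8 libraries.

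Isocitrate lyase (Os07g0529000) carries out the step that commits isocitrate to the glyoxylate cycle. The gene is on chromosome 7 at 20691213 to 20693521 of the IRGSP-1.0 build, with 1 annotated transcript of 2091 bases in the deposited tables. In total RNA it was at 3.58 FPKM in well-watered leaves and at 342, 2243 and 1713 FPKM after 1, 2 and 3 days without water. The mRNA libraries had 1.64 FPKM in well-watered leaves and 187, 1110 and 838 FPKM on the same days. Both library kinds thus gave the same order of treatments, with well-watered lowest and day 2 highest.

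The log2 ratio of isocitrate lyase to well-watered leaves on day 1 was 6.23 in total RNA and 6.15 in mRNA. Day 2 gave 8.94 and 8.72, and day 3 gave 8.55 and 8.31. Among 18113 genes ordered by the smaller ratio of each, isocitrate lyase had the ranks 1, 1 and 16 on days 1, 2 and 3. In abundance it stood at rank 13611 of 30263 genes in well-watered total RNA, and at ranks 228, 13 and 26 on days 1, 2 and 3.

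These ratios rest on a low watered level. If the most frequent low step is 1 fragment, the watered values of isocitrate lyase stand for 131 fragments in total RNA and 56 in mRNA. The 95% exact Poisson interval was then 2.99 to 4.25 FPKM in total RNA and 1.24 to 2.13 FPKM in mRNA, which covers counting error only and no difference between plants. The upper ends of both intervals lay below the day 1 values. Those values were known when the gene was chosen, so nothing is read from that gap.

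Malate synthase (Os04g0486950), which uses the glyoxylate made by isocitrate lyase, is on chromosome 4 at 24325769 to 24328250, with 1 transcript of 2046 bases. In total RNA it was at 1.84 FPKM in well-watered leaves and at 138, 607 and 472 FPKM on days 1, 2 and 3. The mRNA libraries had 1.72 FPKM in well-watered leaves and 111, 425 and 359 FPKM on these days. Its order of treatments was that of isocitrate lyase in both library kinds.

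The log2 ratio of malate synthase to well-watered leaves on day 1 was 5.61 in total RNA and 5.37 in mRNA. Day 2 gave 7.74 and 7.29, and day 3 gave 7.38 and 7.05. By the smaller ratio it ranked 5, 6 and 43 of 18113 genes on days 1, 2 and 3. Its watered level stands for 66 fragments in total RNA and 57 in mRNA under the same assumption, with 95% Poisson intervals of 1.4 to 2.3 FPKM and 1.3 to 2.2 FPKM. In abundance it stood at rank 112 of 30263 genes in day 2 total RNA and at rank 16139 in well-watered total RNA. In mRNA it stood at rank 189 of 28506 genes on day 2 and at rank 17319 in well-watered leaves.

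**Figure D2:**
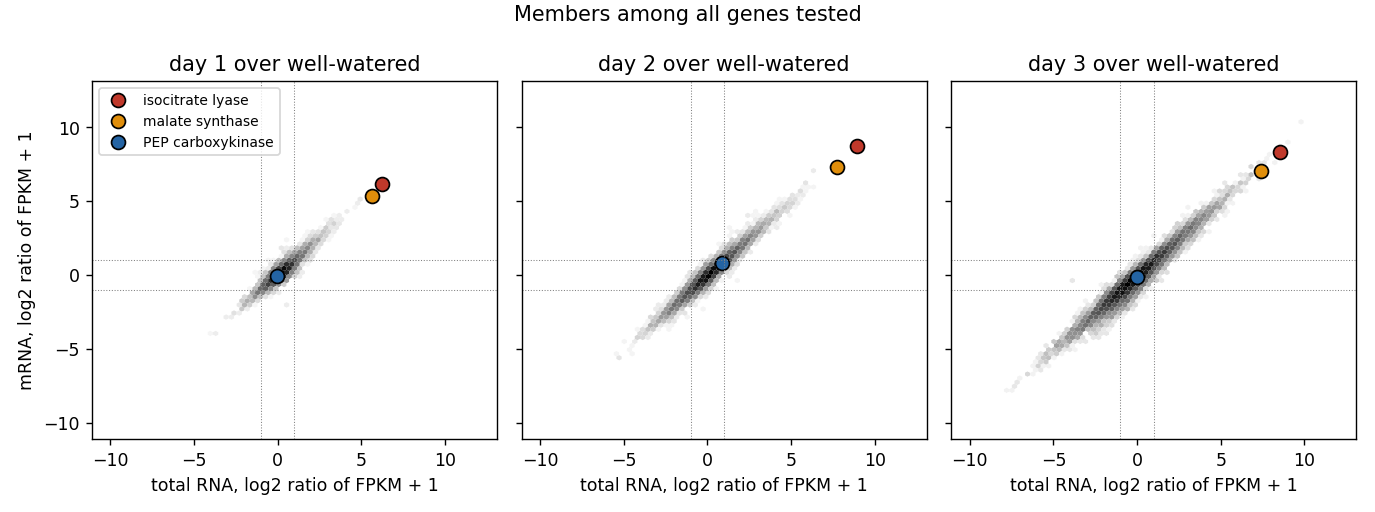
Log2 ratio of FPKM + 1 of each drought day to well-watered leaves in total RNA (horizontal axis) and mRNA (vertical axis) for 18113 genes, drawn as hexagons that are darker where more genes lie on a log scale, with the 3 members as coloured points and dotted lines at -1 and 1. The day 1 point of isocitrate lyase is at 6.23 and 6.15 and its day 2 point at 8.94 and 8.72, at the upper end of all genes, while PEP carboxykinase lies inside the dotted lines on each day.

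PEP carboxykinase (Os03g0255500) is on chromosome 3 at 8218898 to 8224127. In total RNA it was at 64.8 FPKM in well-watered leaves and at 61.8, 119 and 65.2 FPKM on days 1, 2 and 3. The mRNA libraries had 77.9 FPKM in well-watered leaves and 73.1, 136 and 70.9 FPKM on these days. Day 2 was the highest treatment in both library kinds, and the other 3 treatments lay between 61.8 and 65.2 FPKM in total RNA and between 70.9 and 77.9 FPKM in mRNA.

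The log2 ratio of PEP carboxykinase to well-watered leaves on day 1 was -0.07 in total RNA and -0.09 in mRNA, and day 3 gave 0.01 and -0.13. Day 2 gave 0.87 and 0.79, below the size needed for a call. An alternative limma fit with no minimum size, which takes the library kinds as a replicate block, called this day 2 difference (log2 0.83). Library kinds are not biological replicates, so that call does not measure spread between plants. Its day 3 mean ratio lay between -0.31 and 0.40 over all alternatives run, so its sign on that day depends on the scaling.

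PEP carboxykinase had 2 transcripts in the deposited tables. The longer, of 2376 bases, was at 45.8, 41.7, 89.4 and 43.8 FPKM in total RNA of the well-watered, day 1, day 2 and day 3 plants. The shorter, of 701 bases at 8218898 to 8219785, was at 19.0, 20.1, 29.7 and 21.4 FPKM in the same libraries. The longer transcript made up between 67.1% and 75.1% of the gene's FPKM in total RNA and between 70.5% and 77.0% in mRNA, and both transcripts were highest on day 2 in both library kinds. The shorter one lies within the span of the longer, so the division of fragments between them is uncertain.

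The steps between drought days were taken next, comparing day 2 with day 1 and day 3 with day 2. Isocitrate lyase rose further on day 2, with log2 ratios of day 2 to day 1 of 2.71 in total RNA and 2.57 in mRNA. Malate synthase also rose on day 2, with ratios of 2.13 and 1.92. These 2 of 3 members were called higher in this step, against 4.3% of genes tested. PEP carboxykinase was at 0.93 and 0.88 in this step, just under the size of a call, and was past it under median-ratio scaling (mean of the library kinds 1.09).

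From day 2 to day 3 none of the 3 genes was called, while 7.38% of genes tested were higher and 15.1% lower. The log2 ratio of day 3 to day 2 was -0.39 in total RNA and -0.40 in mRNA for isocitrate lyase, -0.36 and -0.24 for malate synthase, and -0.86 and -0.93 for PEP carboxykinase. The median gene moved by -0.35 and -0.46 in the same step. Under median-ratio scaling, which is set by the median gene, isocitrate lyase stood at 0.05 and 0.17 and malate synthase at 0.07 and 0.33. The deposited quantile-normalized values moved both genes the other way. Back on the linear scale, isocitrate lyase went from 3522 on day 2 to 1663 on day 3 in total RNA. In mRNA it went from 1526 to 804. Malate synthase went from 644 to 428 in total RNA and from 421 to 313 in mRNA. Whether day 2 or day 3 was higher for these 2 genes, and by how much, thus depends on the scaling. PEP carboxykinase kept a negative ratio in this step under all alternatives run, with mean ratios between -0.93 and -0.39.

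The ratio of isocitrate lyase to malate synthase, both in FPKM and thus per length, was 1.95 in total RNA of well-watered leaves and 2.48, 3.69 and 3.63 on days 1, 2 and 3. In mRNA it was 0.954 in well-watered leaves and 1.68, 2.61 and 2.33 on days 1, 2 and 3. It was higher on days 2 and 3 than in well-watered leaves in both library kinds. Isocitrate lyase was at 0.0553 times the FPKM of PEP carboxykinase in well-watered total RNA, and at 5.54, 18.8 and 26.3 times on days 1, 2 and 3. Malate synthase was at 0.0284, 2.23, 5.10 and 7.23 times PEP carboxykinase over the same 4 total RNA libraries. PEP carboxykinase was therefore the least abundant of the 3 on each drought day and the most abundant in watered leaves, in both library kinds.

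**Figure D3:**
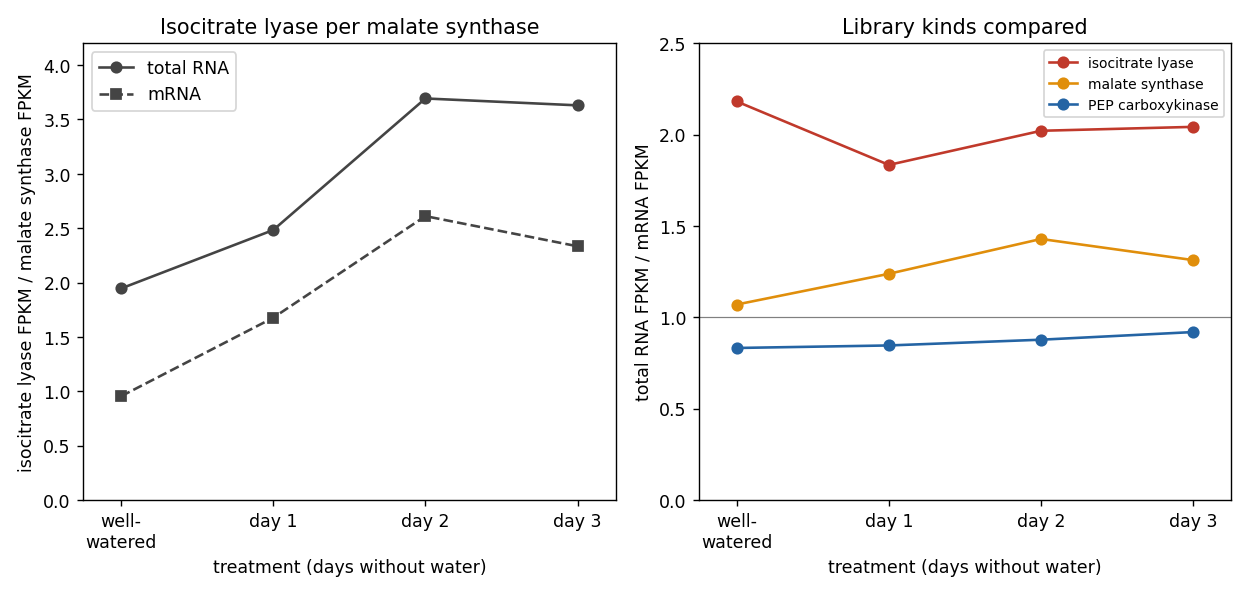
Left, FPKM of isocitrate lyase divided by FPKM of malate synthase in total RNA and mRNA; right, total RNA FPKM divided by mRNA FPKM for each member, both against treatment, with each point 1 library or 1 pair of libraries. The left ratio lies at 3.69 and 2.61 on day 2, against 1.95 and 0.954 in watered leaves, and the right ratio stays between 1.83 and 2.18 for isocitrate lyase.

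The library kinds gave different levels for isocitrate lyase. Its total RNA FPKM was 2.18 times its mRNA FPKM in well-watered leaves and 1.83, 2.02 and 2.04 times on days 1, 2 and 3. These ratios stood at percentiles 98.2 to 99.1 of all genes tested in the 4 treatments. The ratio was 1.07, 1.24, 1.43 and 1.31 for malate synthase and 0.832, 0.846, 0.877 and 0.919 for PEP carboxykinase over well-watered leaves and days 1, 2 and 3. The tables were processed separately, so these levels are set side by side only.

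Genes with like descriptions in the files were measured beside the members. Os01g0798500, described as malate synthase-like, was at 19.3, 9.74, 3.30 and 0.989 FPKM in total RNA of well-watered, day 1, day 2 and day 3 leaves, and at 42.5, 21.8, 6.97 and 1.14 FPKM in mRNA. It fell on day 2, with log2 ratios of -2.24 and -2.45 to well-watered leaves, and on day 3, with -3.35 and -4.34. In day 3 total RNA it stood below malate synthase (472 FPKM), and in well-watered total RNA it stood above it (1.84 FPKM).

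Of 3 other genes described as PEP carboxykinase or as holding its domain, 2 were measured. Os10g0204300, on chromosome 10 at 7435159 to 7442007, was at 21.2, 16.7, 9.77 and 3.41 FPKM in total RNA of well-watered, day 1, day 2 and day 3 leaves, and fell on day 3 with log2 ratios of -2.33 in total RNA and -2.92 in mRNA. Os04g0592500, described by an ATP-utilising domain of the enzyme, was at 4.35, 4.57, 2.90 and 1.07 FPKM in total RNA, and fell on day 3 with -1.37 and -1.92. With a pseudocount of 5 FPKM it was not called (-0.62 and -1.06). Os10g0204400 overlaps Os10g0204300 by coordinates and had at most 0.169 FPKM in the 8 libraries, so the division of fragments between these neighbours is uncertain. Os03g0255500 was thus the most abundant of the 4 genes with this description in all 8 libraries.

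Other enzymes that share metabolites with the members were grouped by words in the file descriptions, and their counts are set beside the shares of all genes tested. The share of genes tested that was higher on day 1 was 6.93%, with 2.46% lower, and the shares were 14.5% and 11.1% for day 2 and 18.2% and 25.9% for day 3. The median log2 ratio over all of them on day 1 was 0.23 in total RNA and 0.17 in mRNA. Day 2 gave 0.11 and 0.06, and day 3 gave -0.24 and -0.39. Median-ratio scaling moved the day 3 medians to 0.07 and 0.10 and the day 1 medians to 0.02 and 0.00.

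Fatty acid beta-oxidation supplies the acetyl-CoA that enters the glyoxylate cycle. Of 15 genes described in this pathway, 13 were measured. By day 1, 7 of them were higher and 0 lower, day 2 had 10 and 0, and day 3 had 10 and 1. The list's median log2 ratio was 1.10 in day 1 total RNA and 1.06 in day 1 mRNA, with 1.68 and 1.66 for day 2 and 1.75 and 1.80 for day 3. Under median-ratio scaling and under the deposited quantile normalization, 4 genes were higher on day 1.

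Os02g0274100, a multifunctional protein of peroxisomal beta-oxidation, was at 51.5, 242, 393 and 1135 FPKM in total RNA of well-watered, day 1, day 2 and day 3 leaves. Its log2 ratio on day 3 was 4.44 in total RNA and 4.05 in mRNA. Os05g0163700, described as acyl-CoA oxidase 4, a short-chain acyl-CoA oxidase, was at 10.6, 59.0, 131 and 210 FPKM, with day 3 ratios of 4.19 and 3.89. Both were highest on day 3 in both library kinds. Another gene with the acyl-CoA oxidase 4 description, Os06g0347100, fell on day 3 with ratios of -1.02 and -2.21, a call that was lost under median-ratio scaling (-0.68 and -1.66) and with a pseudocount of 5 FPKM (-0.85 and -2.09).

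Triacylglycerol lipases release fatty acids from storage lipid. The list took 30 genes, of which 7 are described as triacylglycerol lipases and 23 only as class 3 lipases, whose substrate the files do not state. Of these, 22 were measured, of which 2 were higher and 1 lower on day 1, day 2 had 4 and 1, and day 3 had 8 and 4. With a pseudocount of 5 FPKM the day 3 counts were 5 and 2, and quantile normalization left 2 lower. The list's median ratio on day 3 was 0.42 in total RNA and 0.39 in mRNA. Os01g0253900, described both as a class 3 lipase and as a triacylglycerol lipase, was at 13.0, 55.3, 169 and 417 FPKM in total RNA over the 4 treatments. Its day 3 ratios were 4.90 and 4.80. Os04g0657500, described only as a class 3 lipase, was at 251, 101, 24.3 and 0.537 FPKM, with day 3 ratios of -7.36 and -7.61. Os04g0146800, described as the triacylglycerol lipase SDP1 and named after its values were seen, was at 7.64, 10.8, 8.35 and 3.41 FPKM. It was not called on any day, with day 3 ratios of -0.97 and -1.14.

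Citrate synthase and aconitase make the isocitrate that isocitrate lyase uses. All 4 genes described were measured, and 1, 2 and 3 were higher on days 1, 2 and 3, with 0 lower on each day. The aconitase gene Os03g0136900 was at 26.6, 80.1, 128 and 347 FPKM in total RNA over the 4 treatments, with day 3 ratios of 3.66 and 3.57. The citrate synthase gene Os02g0232400 was at 94.1, 179, 333 and 487 FPKM, with day 3 ratios of 2.36 and 2.44, and a second citrate synthase gene, Os02g0194100, had 1.88 and 1.80. These 3 genes were highest on day 3. The remaining citrate synthase gene, Os11g0538900, also named after its values were seen, was not called on any day and had day 3 ratios of -0.81 in total RNA and -1.47 in mRNA.

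Malate dehydrogenase takes up the malate that malate synthase makes, and malic enzymes turn malate into pyruvate. Of 19 genes described, 17 were measured, of which 5 were higher and 0 lower on day 1, day 2 had 6 and 2, and day 3 had 5 and 6. The median ratio for day 3 was -0.34 in total RNA, -0.25 in mRNA, and 0.02 and 0.31 under median-ratio scaling. Median-ratio scaling and quantile normalization each left 2 genes higher on day 1, and a pseudocount of 5 FPKM left 3 higher on day 1 and 3 on day 3. Quantile normalization gave 4 lower on day 2.

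A pair of genes described as glyoxysomal malate dehydrogenase moved in opposite directions. Os12g0632700 was at 30.1, 82.2, 154 and 282 FPKM in total RNA of well-watered, day 1, day 2 and day 3 leaves and rose on every drought day, with day 3 ratios of 3.19 in total RNA and 3.16 in mRNA. Os03g0773800 was at 1319, 731, 388 and 67.6 FPKM and fell on days 2 and 3, with day 3 ratios of -4.27 and -4.02. In total RNA the gene that fell was the more abundant of the pair up to day 2 and the less abundant on day 3. A gene described as nodule-enhanced malate dehydrogenase, Os07g0630800, was at 78.8, 78.6, 65.0 and 3.69 FPKM and fell on day 3 (-4.09 and -4.37). The cytosolic NADP-malic enzyme gene Os01g0743500 was at 0.126, 1.57, 9.81 and 133 FPKM in total RNA, a day 3 ratio of 6.89, and was at 215 FPKM in day 3 mRNA and listed at 0 in well-watered mRNA.

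Isocitrate dehydrogenase uses the same isocitrate as isocitrate lyase, succinate dehydrogenase uses the succinate that isocitrate lyase makes, and 2-oxoglutarate dehydrogenase and succinyl-CoA ligase carry the steps between them in the tricarboxylic acid cycle. All 14 genes described were measured, and 2, 8 and 7 of them were higher on days 1, 2 and 3, with 0 lower on each day. The quantile-normalized values gave 4 genes for day 2, and both they and median-ratio scaling gave 1 gene for day 1. The NAD-dependent isocitrate dehydrogenase gene Os04g0479200 was at 9.58, 22.4, 49.9 and 209 FPKM in total RNA over the 4 treatments, with day 3 ratios of 4.32 and 4.29. Its day 1 call (1.14 and 1.16) was lost with median-ratio scaling (0.91 and 0.97), with quantile normalization (0.99 and 1.09) and with a pseudocount of 5 FPKM (0.91 and 0.95). Os01g0248400, another isocitrate dehydrogenase gene, was higher on day 2 (1.20 and 1.23) and was at 0.45 and 0.58 on day 3; the day 2 call was lost under quantile normalization (0.90 and 1.14).

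**Figure D4:**
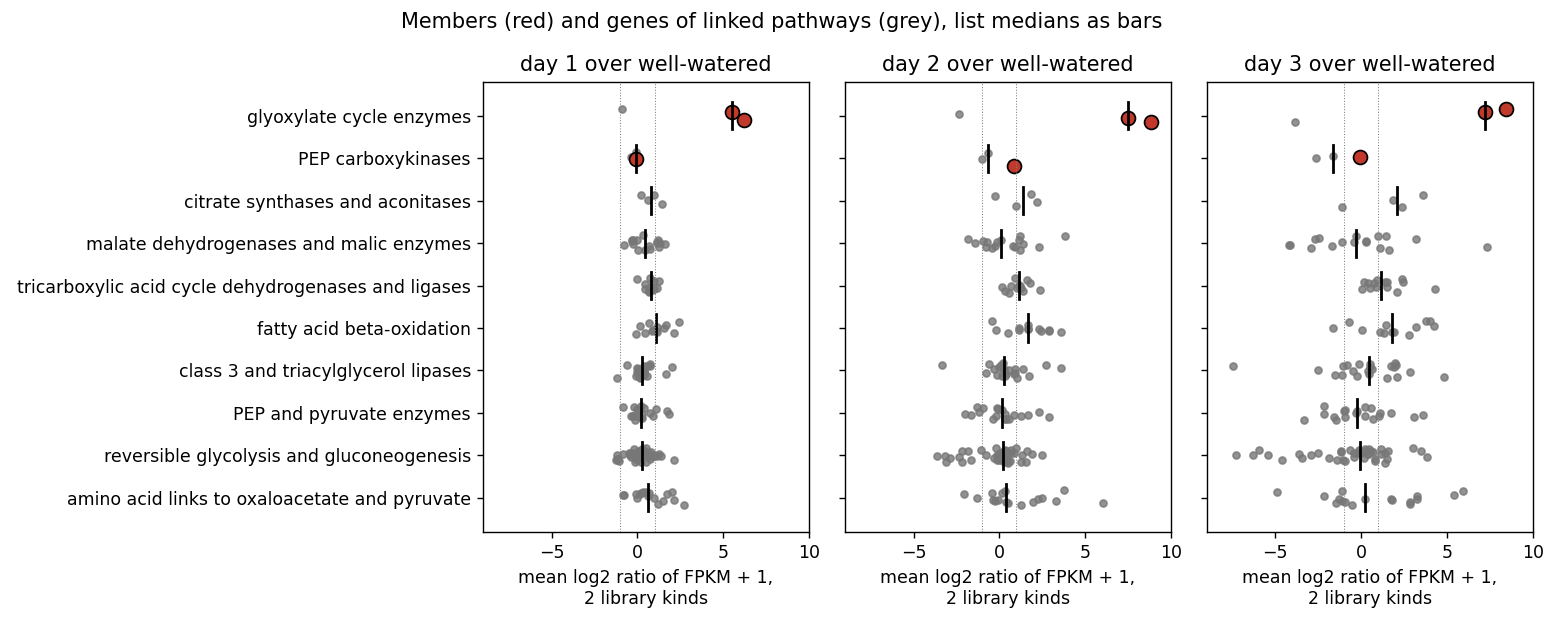
Mean log2 ratio of FPKM + 1 over the library kinds (horizontal axis) for each drought day over well-watered leaves, with 1 point per measured gene, members in red, other genes in grey, list medians as black bars and dotted lines at -1 and 1; the vertical position within a list carries no value. Isocitrate lyase and malate synthase lie to the right of every gene of the linked lists on days 1 and 2, and PEP carboxykinase lies between the dotted lines on each day.

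Enzymes around PEP and pyruvate act beside PEP carboxykinase. Of 26 genes described, 19 were measured, of which 3 were higher and 0 lower on day 1, day 2 had 4 and 3, and day 3 had 4 and 5. With a pseudocount of 0.1 FPKM, 5 were lower on day 2. The pyruvate kinase genes Os11g0216000 and Os12g0145700 rose on every drought day, with day 3 ratios of 3.63 in total RNA and 3.56 in mRNA for Os11g0216000 and of 3.07 and 3.15 for Os12g0145700. Pyruvate kinase uses the PEP that PEP carboxykinase makes. Os01g0208700, described as PEP carboxylase, which makes oxaloacetate from PEP, was at 55.7, 31.7, 12.9 and 5.69 FPKM in total RNA and fell on days 2 and 3, with day 3 ratios of -3.08 and -3.54. Other genes of that description, named after their values were seen, were not lower. Os08g0366000 was at 98.5, 219, 320 and 359 FPKM in total RNA. It was higher on every drought day, with ratios of 1.14 and 1.01 on day 1 and of 1.86 and 1.61 on day 3. Os02g0244700 (134, 122, 173 and 142 FPKM) and Os09g0315700 were not called on any day.

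Of 46 genes of the reversible steps of glycolysis and of gluconeogenesis, 41 were measured, of which 4 were higher and 5 lower on day 1, day 2 had 6 and 10, and day 3 had 9 and 12. With a pseudocount of 5 FPKM, 3 were lower on day 1. The cytosolic phosphoglycerate kinase gene Os06g0668200 rose on every drought day, with day 3 ratios of 3.42 and 3.60. The aldolase gene Os06g0608700, described as a cytoplasmic isozyme, was at 564, 242, 48.8 and 2.73 FPKM in total RNA over the 4 treatments. Its day 3 ratios were -7.24 and -7.35. The list's median for day 3 was -0.06 in total RNA, -0.01 in mRNA, and 0.28 and 0.52 under median-ratio scaling.

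Aminotransferases, asparagine enzymes and glutamate dehydrogenases link amino acids to oxaloacetate, pyruvate and 2-oxoglutarate. Of 25 genes described, 17 were measured, of which 6 were higher and 0 lower on day 1, day 2 had 7 and 2, and day 3 had 8 and 5. A pseudocount of 5 FPKM left 1 gene lower on day 3 and 3 higher on day 1. Median-ratio scaling left 3 lower on day 3, as did the quantile-normalized values. The asparagine synthetase gene Os03g0291500 was listed at 0 in well-watered total RNA and was at 2.31, 59.6 and 61.0 FPKM on days 1, 2 and 3, with an mRNA level of 68.3 FPKM in day 3 and 0.107 FPKM in well-watered leaves, a day 3 ratio of 5.97. The alanine aminotransferase gene Os10g0390500 was at 23.6, 166, 348 and 1011 FPKM in total RNA, and Os07g0108300, of the same description, was at 1206, 697, 332 and 41.1 FPKM. Their day 3 ratios were 5.36 in total RNA and 5.47 in mRNA for Os10g0390500, and -4.84 and -4.99 for Os07g0108300.

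Likeness of course was measured as the root mean square difference between the 6 log2 ratios of 2 genes, from 3 days and 2 library kinds. All 6 ratios use the well-watered library of their kind, so this is a description only. Isocitrate lyase and malate synthase differed by 1.11. Malate synthase was the gene ranked 4 in nearness to isocitrate lyase among 18112 others, and isocitrate lyase was at rank 11 for malate synthase. PEP carboxykinase differed by 7.65 from isocitrate lyase and by 6.55 from malate synthase. Within a difference of 0.5 there were 0 genes around isocitrate lyase, 3 around malate synthase and 2598 around PEP carboxykinase.

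The gene nearest to isocitrate lyase was Os04g0460300, described as an amino acid transporter, at a difference of 0.85. It was at 0.580, 66.8, 321 and 373 FPKM in total RNA of well-watered, day 1, day 2 and day 3 leaves. Next were Os05g0575000 (1.01) and Os02g0649300 (1.02), and, after malate synthase, Os02g0783625 (1.27), described as lysine ketoglutarate reductase/saccharopine dehydrogenase, which breaks down lysine. Nearest to malate synthase was Os10g0118200, a conserved hypothetical protein, at 0.22, followed by Os04g0460300 (0.47), Os02g0649300 (0.49), Os05g0575000 (0.53) and Os03g0820500 (0.55). The lists of 5 nearest genes for isocitrate lyase and malate synthase had Os04g0460300, Os05g0575000 and Os02g0649300 in common.

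The genes nearest to PEP carboxykinase were Os08g0425500 (0.12), described by an endonuclease/exonuclease/phosphatase domain, and Os01g0886600 (0.16), described as the regulatory subunit CLPX of a Clp protease. They were followed by Os03g0345700 (0.16), Os07g0575700 (0.17) and Os03g0132200 (0.18), an expansin-like gene. All 5 had their highest mean ratio on day 2, as PEP carboxykinase did.

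**Figure D5:**
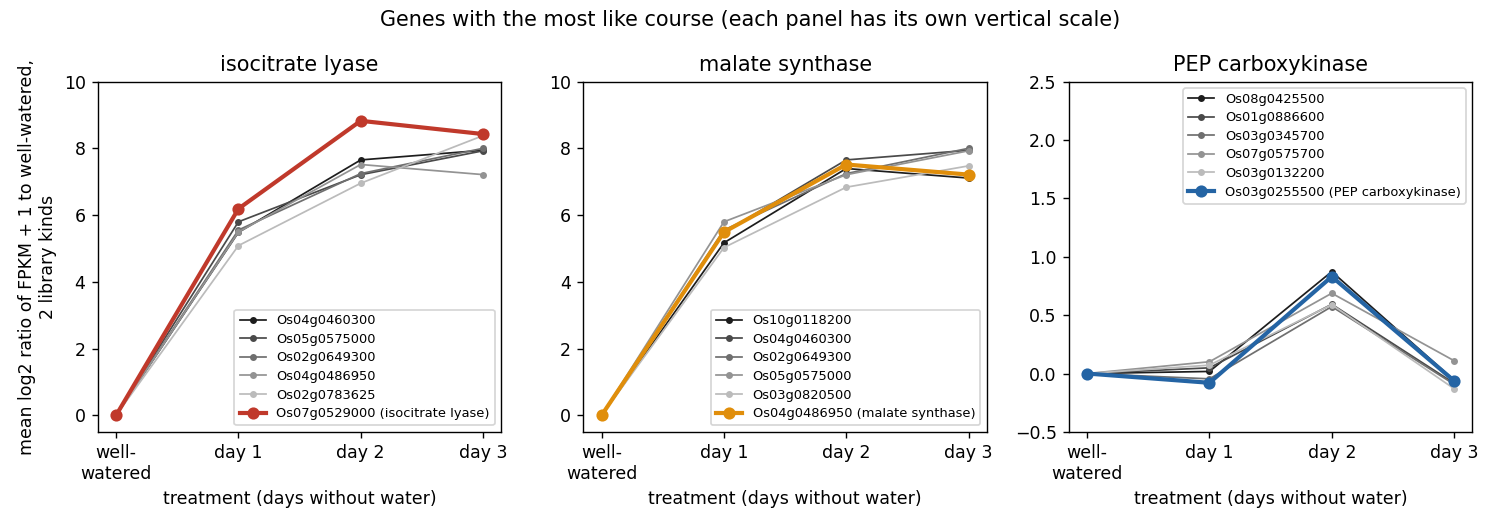
Mean log2 ratio of FPKM + 1 to well-watered leaves over the library kinds (vertical axis) against treatment for each member (thick coloured line) and the 5 genes with the smallest root mean square difference from it (thin grey lines); the right panel has a smaller vertical scale than the other panels. Isocitrate lyase lies above its nearest genes on days 1 and 2, and PEP carboxykinase and its nearest genes have a single high point on day 2.

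In the order of day 1 ratios, isocitrate lyase (smaller ratio 6.15) was followed by Os05g0575000 (5.72) and Os02g0106100 (5.57), described as similar to fructosyltransferase. Malate synthase (5.37) stood between Os04g0460300 (5.42) and Os02g0649300 (5.36). Os02g0106100 was at 1.56, 121, 224 and 18.6 FPKM in total RNA of well-watered, day 1, day 2 and day 3 leaves. It therefore fell in the step to day 3, by the day 3 to day 2 ratios of -3.52 in total RNA and -4.19 in mRNA, where isocitrate lyase and malate synthase were not called.

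No annotated gene of the tables overlapped a member. The gene next to malate synthase, Os04g0486900, ends 212 bases to its left, and its log2 ratios on day 1 were 0.30 in total RNA and 0.37 in mRNA, and day 3 gave -0.82 and -0.41, with no call on any day. Os04g0487000, 3679 bases to the right of malate synthase, was lower on day 3, with ratios of -1.57 and -2.44, a call that was lost with a pseudocount of 5 FPKM (-0.82 and -1.41). Isocitrate lyase has its nearest right neighbour, Os07g0529600, at 31060 bases, and that gene fell on every drought day, with ratios of -1.42 and -1.41 on day 1 and of -2.62 and -2.53 on day 3. On the quantile-normalized values it was not called on day 1 (-0.91 and -0.72). Os03g0255400, 1240 bases to the left of PEP carboxykinase, was not called on any day.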

How the data were processed

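Strand-specific total RNA and mRNA libraries of rice leaves were sequenced, per the labels' protocols. Per the submitters' processing notes, StringTie 1.3.3b, HISAT2 2.0.5, Trimmomatic 0.32, Bowtie2 2.2.6, FastQC 0.10.0 and the build IRGSP-1.0 were used, and their roles and strand settings are not given in the sources used here. The authors deposited FPKM per transcript and library in 1 table per library kind, per the file headers, and log2 values that were quantile-normalized over the 4 libraries of a table. The fold and mean columns of the tables were left out.

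FPKM was summed per gene, genes whose mean reached 1 FPKM in both tables were kept, and ratios are log2 of FPKM + 1, which understates differences of low genes. The mean ran over the 4 treatments, so a gene near 0 in watered leaves could be kept through its drought levels alone. Os01g0743500 is an example. Such genes enter the counts of higher genes by construction, in the lists and among all genes tested. A call needs a ratio of at least 1, or at most -1, in both kinds. The members and lists were chosen with earlier results of these data known, and exclusions from lists and marker sets were added from the wording of descriptions, in the marker sets after values were seen. Named genes were set by rule: the members, measured genes of the same description, per list the 2 highest and 2 lowest genes called, by mean day 3 ratio, the 5 nearest genes in course, and day 1 rank neighbours. Not all are printed. Malate dehydrogenase genes, and those of glycolysis and gluconeogenesis, were grouped by description, so compartment is not measured.

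Alternatives were pseudocounts of 0.1 and 5 FPKM, no filter or a mean of 5 FPKM, median-ratio scaling, the deposited quantile-normalized values, FPKM without the 10 most abundant genes, a single library kind, and a limma fit (version 3.58.1, R 4.3.3) that blocks on library kind. Only the size rule and the limma fit were also run on simulated data. Python 3.11.15, pandas 2.3.3, numpy 2.4.6, scipy 1.17.1 and matplotlib 3.10.9 were used.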

Additional observations from a re-analysis of the deposited data

How the results depend on the processing

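Over all alternatives run, 2 members (isocitrate lyase and malate synthase) were called higher on each drought day, except that limma also called PEP carboxykinase on day 2. The mean log2 ratio of isocitrate lyase lay between 5.10 and 6.64 for day 1, 7.71 and 9.46 for day 2, and 7.32 and 8.89 for day 3, and that of malate synthase between 4.25 and 6.04, 6.24 and 8.08, and 5.94 and 7.78. A pseudocount of 5 FPKM by its construction gives low genes less weight. With it 648 of 18113 genes tested were higher on day 1 and 1643 on day 2, against 1256 and 2627 by the size rule. The count of higher genes over the 8 linked lists was then 19 on day 1, against 30 by the size rule. The limma fit with library kind as a replicate block has 3 residual degrees of freedom and, with no minimum size, called 6225, 6685 and 5847 genes higher on days 1, 2 and 3. Over the 8 linked lists its day 1 counts were 77 higher and 14 lower, its day 2 counts 79 higher and 31 lower, and its day 3 count of lower genes 52, against 30 and 6, 47 and 18, and 33 by the size rule. The limma counts of all genes are out of 18113 genes tested. The counts over the 8 lists are not given as shares, so nothing is read from them about the lists against other genes. Library kinds are not biological replicates, so the limma calls (Benjamini-Hochberg adjusted threshold 0.05) do not measure spread between plants. Of the counts per list and per step, 65 moved by more than 1.5 times or changed to or from 0, and 469 did not. The cause was not tested. Each group holds 1 library, so none could be left out, and levels of 1.64 to 3.58 FPKM in watered leaves limit the precision of the ratios of isocitrate lyase and malate synthase.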

Other observations

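One gene described as cytoplasmic malate dehydrogenase, Os04g0551200, named after its values were seen, was at 17.1, 14.3, 12.9 and 13.3 FPKM in total RNA of well-watered, day 1, day 2 and day 3 leaves and at no more than 0.0667 FPKM in each mRNA library, and it was therefore not among the measured genes.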
